A study of Arabidopsis thaliana with 12 samples.

Results

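The comparison asks what the allele smxl4-1 adds to seedlings that already carry smxl5-1. It sets the 3 libraries of the double mutant smxl4-1 smxl5-1 against the 3 of the single mutant smxl5-1, 6 of the 12 libraries of the series, across every gene with a value. All libraries are poly-A RNA-seq of whole Arabidopsis thaliana seedlings in the Col-0 background, 7 days old, grown on half-strength medium with 12 h of light and 12 h of dark at 21 °C. Each biological replicate pooled 15 seedlings per the labels. Both groups compared carry smxl5-1 in their label and differ in the smxl4-1 label. The other groups are WT and smax1-2, with 3 libraries each, which entered the fit, where they share in the estimate of the spread and in the choice of genes tested, and are given here as levels. A library of smxl4-1 alone is not analysed here, so an effect of smxl4-1 by itself cannot be told apart from an effect that needs both alleles.

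The SMXL proteins are nuclear repressors related to a bacterial and plant protein-unfolding chaperone. In Arabidopsis, SMAX1 and SMXL2 are removed by karrikin signalling, and SMXL6, SMXL7 and SMXL8 by strigolactone signalling. SMXL3, SMXL4 and SMXL5 are not known to be removed by either, and act redundantly in the early formation of phloem, the tissue that carries sugar from leaves to roots.

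Values are FPKM per gene, a level per length of transcript and per library size, summed over the assembled transcript pieces of a gene after weighting each piece by the share of the reference transcript it covers. A value of 0 means that no assembled piece of the gene was listed in that library, which is not a measured absence. A value was found for 20869 genes. The 19656 with at least 1 FPKM in at least 3 of the 12 libraries were tested with limma on log2(FPKM + 1), a scale that understates the change of low genes, with Benjamini-Hochberg adjustment over all genes tested. Read depth per library is known only as mean coverage, where 1 FPKM corresponded to a depth of 1.05 to 1.22 reads per base. Between 27825 and 31919 pieces were listed per library. The share of pieces under 200 bases, whose FPKM is the least certain, was 7.00% in double-mutant replicate 2 and 5.27% in smxl5-1 replicate 1, against 2.24% to 5.01% in the other 10.

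Among the gene lists the clearest difference was in late anthocyanin enzymes, 7 of 11 of which were higher in the double mutant. Among phenylpropanoid and early flavonoid enzymes 6 of 13 were higher. Of 5 anthocyanin regulators 1 was higher and 1 lower, and of 23 sucrose and sugar transport genes 5 were higher and 1 lower. The list of sugar starvation genes and trehalose phosphate synthases gave 3 of 16 lower, no synthase among them, and defence genes gave 2 of 10 lower. Whichever of the 6 libraries was left out, 6 of the 7 late anthocyanin and 5 of the 6 early flavonoid calls were kept. So were 2 of 2 regulator, 3 of 6 sugar transport, 1 of 3 sugar starvation and 2 of 2 defence calls. Across the genome 588 genes (2.99% of those tested) passed an adjusted p under 0.05, 235 higher (1.2%) and 353 lower (1.8%) in the double mutant. Each count of calls in a list or family is to be read beside these shares. The change was at least 1 on the log2 scale for 75 of the higher and 124 of the lower genes. The median log2 fold change was 0.74 among genes called higher, -0.80 among genes called lower and -0.01 over all tested genes. A positive log2 fold change was found for 9586 of the 19656 tested genes, and counts of signs in a list are to be read beside that. The 2 groups' libraries did not overlap for any of the 588, as they did not for 20.4% of all tested genes. The number of calls rests on the pooled spread and on the libraries: 58 genes were called when the spread was taken from the 6 libraries alone, 1247 of 18884 (6.6%) when pieces were weighted by effective length, and 207 to 486 when 1 of the 6 libraries was left out. The count fell by over 1.5 times without double-mutant replicate 2 (317) or 3 (207) or smxl5-1 replicate 1 or 3 (323 each). Of the 588, 157 were called in every one of these 6 fits and 86 in none. Of 80 called genes followed singly across the settings, 28 were also called with the 6 libraries alone and 25 under a plain sum of FPKM.

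**Figure D1:**
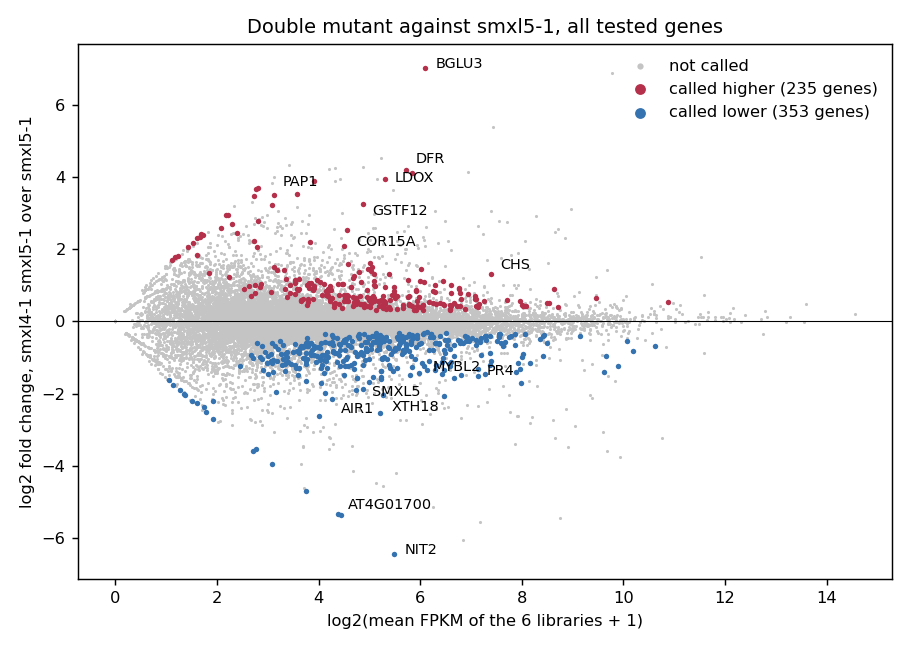
Each point is 1 of the 19656 tested genes, with the log2 of its mean FPKM plus 1 over the 6 libraries on the x axis and the log2 fold change of smxl4-1 smxl5-1 over smxl5-1 on the y axis. Red points are the 235 genes called higher and blue points the 353 called lower; the named points include DFR at 4.19 and NIT2 at -6.45, and grey points of like size lie among them because their replicates spread more.

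The mutated genes themselves were read first. SMXL5 (AT5G57130) lies on the plus strand of TAIR10.1 chromosome 5 from 23144947 to 23149615. Its level was 8.9997, 9.01 and 18.23 FPKM in the double mutant and at 42.4, 50.6 and 40.0 FPKM in smxl5-1, against 3.47, 5.18 and 4.75 FPKM in WT. The smxl5-1 libraries were the highest of all, and the double mutant lay between them and WT without overlap. SMXL5 was lower in the double mutant by a log2 fold change of -1.86 ± 0.24 (SE, limma adjusted p = 0.0047), a call kept when any 1 of the 6 libraries was left out. It was lost under a plain sum of FPKM (adjusted p = 0.777), with the 6 libraries alone (0.0861) and without double-mutant replicate 2 and smxl5-1 replicate 1 together (0.0527). All 6 libraries with smxl5-1 in their label listed an SMXL5 piece under 200 bases, the shortest of 129 bases, and none of the WT or smax1-2 libraries did. An SMXL5 piece with a new junction was listed in 3 smxl5-1 and 2 double-mutant libraries, and in no WT or smax1-2 library. The longest SMXL5 piece had 3512 bases in smxl5-1 and 2013 in the double mutant. The log2 fold change was -0.85 under the plain sum and -2.06 with pieces of at least 200 bases. What part piece length has in the fall was not tested. SMXL4 (AT4G29920, chromosome 4, 14632413 to 14636101, minus strand) was listed at 4.85, 2.75 and 4.81 FPKM in the double mutant and at 2.30, 2.105 and 1.82 FPKM in smxl5-1. The groups did not overlap, yet the difference of 0.71 ± 0.49 did not pass (limma adjusted p = 0.509). SMXL4 RNA was thus not lower in the libraries labelled smxl4-1, so the transcript level does not check that label. Directions below compare the libraries by their labels. What the alleles do to the proteins is not given in the sources used here.

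Of the 8 SMXL genes, all tested, SMXL5 was the 1 called. SMAX1 was listed at 32.1, 25.0 and 27.6 FPKM in the double mutant and at 25.9, 34.6 and 24.7 FPKM in smxl5-1, with overlapping libraries (limma adjusted p = 1.00). SMXL3 had a log2 fold change of 0.39, SMXL7 of 0.27, SMXL6 of 0.17, SMXL8 of -0.11 and SMXL2 of 0.00, and none passed. None of the 8 tested genes of karrikin and strigolactone signalling, from a list of 11, passed either. The nearest were D27, an enzyme of strigolactone synthesis, with a log2 fold change of 0.65 (limma adjusted p = 0.0758), and D14, the strigolactone receptor, with -0.35 (adjusted p = 0.151).

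The late steps of anthocyanin synthesis, which turn colourless flavonoids into the red and purple pigments of the seedling and decorate and store them, had the highest share of calls of any list. Of 11 listed genes, all tested, 7 rose and none fell, against 1.2% of all tested genes called higher, and their median log2 fold change was 1.41 against -0.01 over all genes. DFR (AT5G42800, chromosome 5, 17164093 to 17166032, minus strand), the reductase that commits flavonoids to anthocyanin, was listed at 104, 94.2 and 99.7 FPKM in the double mutant and at 2.30, 5.21 and 7.11 FPKM in smxl5-1. All 3 double-mutant libraries were more than 10 times as high as every smxl5-1 library, and WT, at 1.17, 3.14 and 1.51 FPKM, was as low as smxl5-1 or lower. The log2 fold change of DFR was 4.19 ± 0.41 (limma adjusted p = 0.00122). LDOX (AT4G22880, chromosome 4, 12004726 to 12006209, minus strand), the dioxygenase of the next step, was at 88.7, 72.0 and 60.5 FPKM against 2.82, 4.32 and 4.27 FPKM, a log2 fold change of 3.96 ± 0.24 (limma adjusted p = 6.99e-05). GSTF12 (AT5G17220, chromosome 5, 5658416 to 5659661, plus strand), the glutathione transferase needed to carry anthocyanin to the vacuole, was at 51.0, 55.9 and 48.7 FPKM against 3.73, 5.15 and 4.89 FPKM, a log2 fold change of 3.25 ± 0.23 (limma adjusted p = 0.000177). For both genes WT lay within or below the smxl5-1 range, at 2.63 to 4.22 FPKM for LDOX and 2.86 to 4.32 FPKM for GSTF12.

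Of 8 listed genes for the sugars and acids attached to the pigment, 4 rose. UGT79B1, which adds xylose, was listed at 23.9, 19.95 and 18.5 FPKM in the double mutant and at 2.03, 1.17 and 0 FPKM in smxl5-1. The malonyltransferase 5MAT was at 13.4, 13.5 and 14.6 FPKM in the double mutant and was listed in 1 smxl5-1 library, at 2.96 FPKM. Their log2 fold changes were 3.53 ± 0.56 and 3.23 ± 0.52 (limma adjusted p = 0.0113 and 0.0124), and both calls were lost with a pseudocount of 0.1 (adjusted p = 0.0941 and 0.0604), under a plain sum of FPKM (0.442 and 0.523) and with the 6 libraries alone (0.0556 and 0.106). That of 5MAT was also lost without double-mutant replicate 3 (0.0509), and that of UGT79B1 without double-mutant replicate 2 and smxl5-1 replicate 1 together (0.0565). UGT78D2, which adds glucose, was at 48.0, 45.4 and 40.6 FPKM against 20.6, 22.6 and 21.4 FPKM, and SCPL10, which adds sinapate, at 55.8, 40.6 and 42.5 FPKM against 16.8, 18.18 and 15.5 FPKM. Both were well apart between the groups, with log2 fold changes of 1.01 ± 0.10 and 1.398 ± 0.14 (limma adjusted p = 0.00123 and 0.00152). Of the other 4, which did not pass, UGT75C1 had a log2 fold change of 1.41, 3AT2 of 0.51, BGLU10 of 0.45 and 3AT1 of -0.58.

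Among 10 listed regulators of the pathway, 5 were tested and 2 passed, in opposite directions. PAP1 (AT1G56650, chromosome 1, 21233555 to 21235292, minus strand), a MYB activator of anthocyanin genes, was listed at 13.0, 18.5 and 12.9 FPKM in the double mutant and in 1 smxl5-1 library, at 1.58 FPKM. It was unlisted in all 3 WT libraries, and its log2 fold change was 3.51 ± 0.40 (limma adjusted p = 0.00254). MYBL2 (AT1G71030, chromosome 1, 26795052 to 26796532, minus strand), a MYB repressor of the same genes, was at 36.1, 39.6 and 41.2 FPKM in the double mutant and at 90.2, 106 and 83.0 FPKM in smxl5-1. WT, at 76.7, 79.1 and 82.4 FPKM, stood just under smxl5-1, so it was the double mutant that was low, by a log2 fold change of -1.23 ± 0.11 (limma adjusted p = 0.000545). EGL3, a bHLH partner of the MYB activators, was at 4.09, 13.4 and 6.13 FPKM against 2.57, 1.45 and 1.71 FPKM and did not pass (log2 fold change 1.49, limma adjusted p = 0.0868). TT8, the other bHLH partner, was too rarely listed to be tested, at 2.86, 36.5 and 0 FPKM in the double mutant and 0 in every smxl5-1 library.

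The early enzymes make the flavonoid skeleton that anthocyanins share with other flavonoids. Of 14 listed phenylpropanoid and early flavonoid genes 13 were tested, 6 rose and none fell, with a median log2 fold change of 0.29. Chalcone synthase, CHS, the entry enzyme, was at 272, 240 and 204 FPKM in the double mutant and at 91.8, 112 and 84.4 FPKM in smxl5-1, a log2 fold change of 1.303 ± 0.16 (limma adjusted p = 0.00393). The hydroxylase F3H was at 54.5, 53.7 and 35.96 FPKM against 16.2, 16.3 and 14.9 FPKM, a log2 fold change of 1.52 ± 0.17 (limma adjusted p = 0.00247). In both genes every double-mutant library was above every smxl5-1 and WT library, with WT at 77.1 to 113 FPKM for CHS and 12.2 to 16.5 FPKM for F3H. The isomerase CHI, the flavonol rhamnosyltransferase UGT78D1 and CHIL rose by 0.60, 0.69 and 1.11 on the log2 scale. All 3 calls were kept whichever library was left out. The sixth call, the hydroxylase TT7 at 1.42, was kept in 1 of those 6 fits, the one without double-mutant replicate 3, and its adjusted p reached 0.0859 without smxl5-1 replicate 1. The genes before the flavonoid branch did not pass, with log2 fold changes of 0.23 for PAL1, 0.08 for PAL2 and -0.14 for C4H, nor did FLS1, the flavonol synthase, at -0.02.

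**Figure D2:**
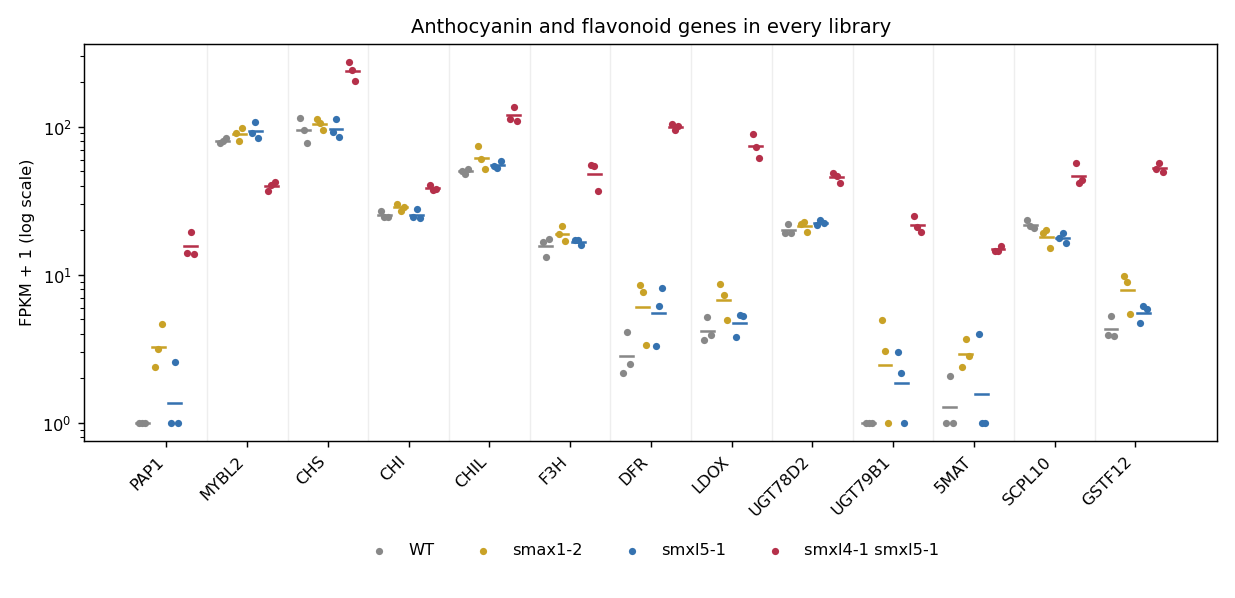
FPKM plus 1 on a log axis for 13 genes of anthocyanin and flavonoid synthesis, with 1 point per library (n = 3 per group) and a line at the mean of the logs. Red double-mutant points lie above blue smxl5-1 points for 12 genes and below them for the repressor MYBL2, at 36.1 to 41.2 against 83.0 to 106 FPKM, while WT and smax1-2 lie near smxl5-1.

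The 250 bases before the annotated start of these genes were read because so many of them moved together. They come from the RefSeq TAIR10.1 genome, printed 5′ to 3′ on the gene's strand, with capitals marking CACGTG, the G-box core that bZIP and bHLH factors recognise. It reads the same on both strands.
DFR: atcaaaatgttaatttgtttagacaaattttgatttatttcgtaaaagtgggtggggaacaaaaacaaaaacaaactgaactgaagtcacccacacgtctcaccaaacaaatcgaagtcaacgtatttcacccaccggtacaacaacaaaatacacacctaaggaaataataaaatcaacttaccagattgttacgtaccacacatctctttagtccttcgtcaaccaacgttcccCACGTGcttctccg
UGT79B1: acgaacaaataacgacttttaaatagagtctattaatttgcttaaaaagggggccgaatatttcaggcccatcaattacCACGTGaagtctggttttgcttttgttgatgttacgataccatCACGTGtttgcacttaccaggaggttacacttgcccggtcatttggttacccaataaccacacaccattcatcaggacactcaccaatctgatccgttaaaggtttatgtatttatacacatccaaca
F3H: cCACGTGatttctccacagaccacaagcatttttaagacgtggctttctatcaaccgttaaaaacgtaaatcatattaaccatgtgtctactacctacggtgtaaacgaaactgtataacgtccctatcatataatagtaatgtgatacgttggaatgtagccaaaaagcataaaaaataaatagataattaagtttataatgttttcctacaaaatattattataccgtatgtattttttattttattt
CHS: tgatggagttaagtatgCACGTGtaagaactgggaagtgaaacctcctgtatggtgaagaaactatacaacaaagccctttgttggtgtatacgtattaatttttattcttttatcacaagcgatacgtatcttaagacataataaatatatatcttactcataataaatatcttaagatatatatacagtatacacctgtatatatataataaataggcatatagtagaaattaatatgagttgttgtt

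These windows lie at chr5:17166033-17166282 (minus strand) for DFR, chr5:21938397-21938646 (minus) for UGT79B1, chr3:19024942-19025191 (plus) for F3H and chr5:4488226-4488475 (plus) for CHS. DFR, F3H and CHS hold 1 match each and UGT79B1 holds 2. CACGTG was in 3 of the 7 late genes called and 3 of the 6 early genes called, in 0 of the 4 late and 1 of the 7 early genes tested but not called, and in 6.49% of all 27437 nuclear promoter windows of that length. The windows of LDOX, GSTF12, PAP1 and MYBL2 hold no CACGTG. Of the MYB motifs searched on both strands, ACCTACC and ACCTAAC were in none of the 7 late genes called and ACCAACC in 1 of them, against 1.16%, 2.46% and 2.69% of all windows. In the other sets, ACCTAAC was in 1 of the 6 early genes called, ACCAACC in 1 of the 4 late and ACCTACC in 1 of the 7 early genes not called. A further motif searched, CCGAC, was in none of the late or early genes called. It was in 2 of the 4 late and 1 of the 7 early genes not called, and in 12% of all windows. The window of COR15A, a cold gene outside the pathway that was called higher, was also read. It holds 1 CACGTG and 2 CCGAC. A match is a run of letters, and binding was not measured.

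SWEET sucrose exporters were higher in the double mutant as well. Of 24 genes of sucrose metabolism and sugar transport, 23 were tested, 5 rose and 1 fell, with a median log2 fold change of 0.08. Over all tested genes 1.2% were called higher and 1.8% lower. SWEET11 and SWEET12, the exporters that pass sucrose to the phloem, were at 148, 120 and 156 FPKM and at 45.6, 37.0 and 35.0 FPKM in the double mutant. In smxl5-1 they were at 71.5, 68.8 and 83.3 FPKM and at 13.4, 16.6 and 13.8 FPKM, below every double-mutant library. Their log2 fold changes were 0.91 ± 0.12 and 1.36 ± 0.15 (limma adjusted p = 0.00488 and 0.00253). In WT, SWEET12 was at 9.23 to 12.7 FPKM, while SWEET11, at 88.6 to 109 FPKM, lay above smxl5-1 and below the double mutant. STP1, a monosaccharide importer, was at 21.0, 18.7 and 19.4 FPKM against 40.1, 53.2 and 32.8 FPKM, a log2 fold change of -1.03 ± 0.15 (limma adjusted p = 0.00815). These 3 calls were kept whichever library was left out.

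The other 3 sugar calls were less stable. SWEET15, another sucrose exporter, was at 108, 107 and 67.7 FPKM in the double mutant and 25.2, 41.5 and 34.5 FPKM in smxl5-1, with 12.4 to 18.1 FPKM in WT (log2 fold change 1.45, limma adjusted p = 0.0191). Its call was lost without double-mutant replicate 1 or 2 or smxl5-1 replicate 1 (adjusted p = 0.0505, 0.058 and 0.0557). SPS4F, a sucrose-phosphate synthase, and SWEET13 had log2 fold changes of 0.95 and 2.44 (limma adjusted p = 0.0244 and 0.0305). SPS4F kept its call only without replicate 2 of either group and SWEET13 only without smxl5-1 replicate 3, with adjusted p up to 0.0764 and 0.111 in the other fits. SUC2, the companion-cell sucrose importer that loads the phloem, was at 31.1, 25.4 and 25.6 FPKM against 26.4, 34.6 and 22.3 FPKM, with overlapping libraries and a log2 fold change of 0.00 (limma adjusted p = 0.998).

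Among 17 sugar starvation genes and trehalose phosphate synthases, 16 were tested, 3 fell and none rose, and the median log2 fold change was -0.52. No trehalose phosphate synthase was called. TPS8, TPS9, TPS10 and TPS11 had log2 fold changes of -0.38, -0.35, -0.73 and -1.27 (limma adjusted p = 0.217, 0.162, 0.0567 and 0.0871). DRM2, a dormancy-associated gene repressed by sugar, was at 50.6, 55.7 and 63.5 FPKM in the double mutant and at 127, 125 and 92.8 FPKM in smxl5-1, with WT at 59.5 to 65.5 FPKM. The double mutant was thus near WT, and smxl5-1 was high (log2 fold change -1.002 ± 0.16, limma adjusted p = 0.0136). DIN10 at -1.22 and EXO at -0.81 on the log2 scale were called as well, with limma adjusted p of 0.0278 and 0.0354. DIN10 kept its call only without replicate 1 of either group and EXO only without smxl5-1 replicate 2, and without double-mutant replicate 3 their adjusted p values were 0.102 and 0.119. Of 18 starch synthesis genes, GBSS1 and SS1, which build amylose and amylopectin, were called higher and 15 of 18 had a positive log2 fold change. GBSS1 was at 106, 58.2 and 58.9 FPKM against 29.3, 34.7 and 30.4 FPKM (log2 fold change 1.16, limma adjusted p = 0.025), a call lost without smxl5-1 replicate 1 or 3 (adjusted p = 0.0749 and 0.0738). SS1, at 0.33, kept its call in none of the 6 fits (adjusted p = 0.0539 to 0.119). None of the 20 tested starch breakdown genes passed, with a median of 0.23, and the nearest were the phosphorylating enzyme PWD at 0.40 and the phosphatase LSF2 at 0.48 (limma adjusted p = 0.0622 and 0.0668).

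The phloem list held no call beyond the sugar exporters it shares with the transport list. Of 23 genes, 20 were tested, SWEET11 and SWEET12 rose and none fell, and 17 of 20 had a positive log2 fold change, with a median of 0.22. The companion-cell genes PP2-A1, AHA3 and FTIP1 had log2 fold changes of 0.12, -0.17 and -0.27. The sieve-element genes SEOR1 and SEOA had 0.14 and 0.02. SEOR1, a structural protein of sieve tubes, was at 8.15, 5.24 and 6.40 FPKM in the double mutant and 5.18, 7.03 and 5.43 FPKM in smxl5-1, ranges that overlap throughout. Whether a tissue holds fewer cells of a type or less RNA per cell cannot be told apart in whole seedlings. None of the 17 tested xylem and cambium genes passed, the nearest being the peptide gene CLE41 at 0.52 (limma adjusted p = 0.0871).

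**Figure D3:**
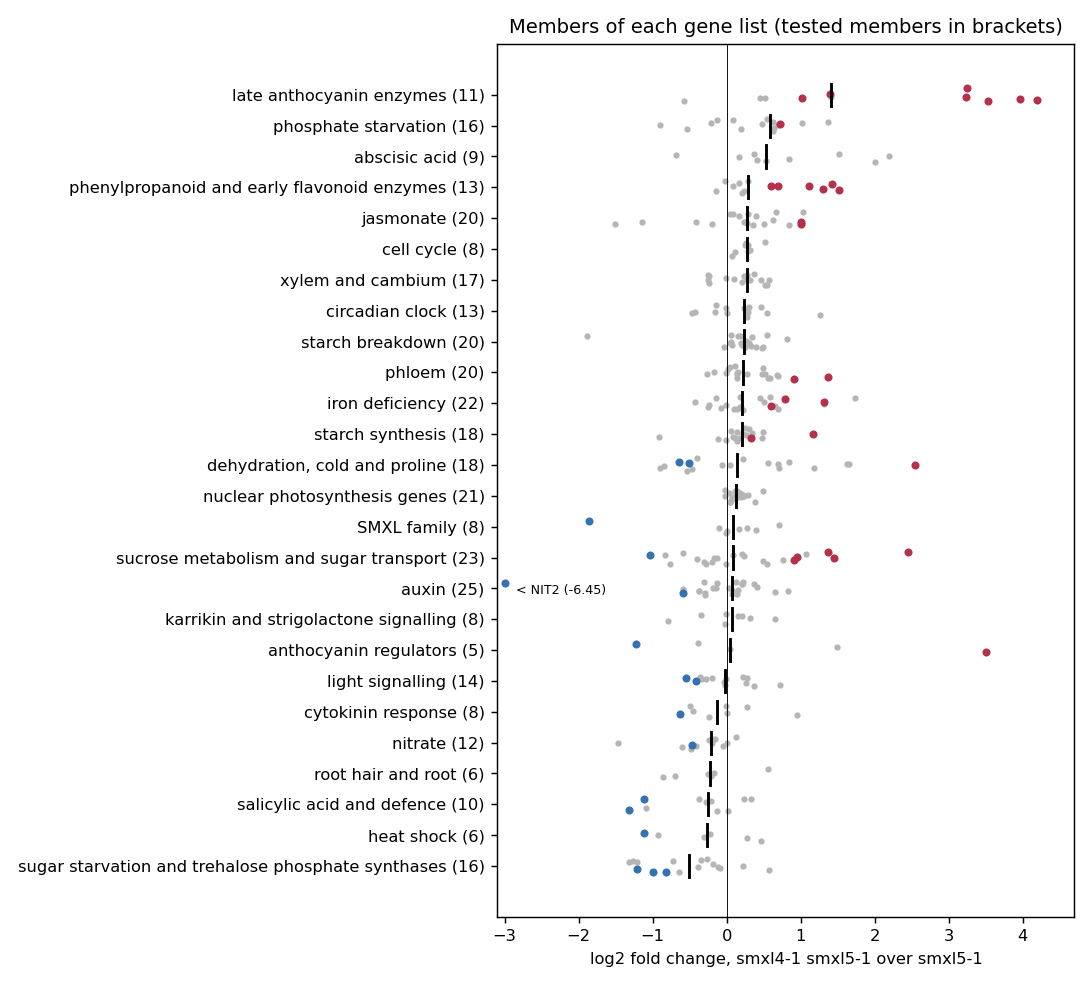
Log2 fold change of smxl4-1 smxl5-1 over smxl5-1 for the tested members of the 26 gene lists with at least 3 of them, 1 point per gene, red where called higher, blue where called lower and grey where not called, with a black bar at each list's median. Late anthocyanin enzymes have the highest median, 1.41, and the list of sugar starvation genes and trehalose phosphate synthases the lowest, -0.52. NIT2 lies beyond the left edge, at -6.45.

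Among the lower genes, several encode enzymes of the cell wall. The class III peroxidases, enzymes that cross-link or loosen the wall, were chosen as a family after their values were seen. Of the 52 tested, 10 fell and none rose, against 1.8% of all tested genes called lower. Their median log2 fold change was -0.47. AT2G38390, a peroxidase, was at 2.38, 3.79 and 3.61 FPKM in the double mutant and at 30.7, 35.7 and 14.02 FPKM in smxl5-1, with WT at 32.7 to 47.7 FPKM. It was the double mutant that was low (log2 fold change -2.62 ± 0.32, limma adjusted p = 0.00386). PRX71, also a peroxidase, was at 173, 128 and 71.5 FPKM against 388, 375 and 385 FPKM, with WT at 131 to 146 FPKM, so here smxl5-1 was high and the double mutant around WT (log2 fold change -1.70 ± 0.28, limma adjusted p = 0.0147). PRX37 was at 9.47, 5.91 and 5.44 FPKM against 21.8, 26.1 and 25.0 FPKM, with WT at 8.29 to 12.3 FPKM (log2 fold change -1.70 ± 0.20, limma adjusted p = 0.00371). Of the 10 peroxidase calls, 6 were kept whichever library was left out, and the other 4 were lost at least without double-mutant replicate 2 (adjusted p = 0.0504 to 0.0557). The calls include nearby loci: AT2G38380 with AT2G38390, AT4G37520 with AT4G37530, and AT5G64100 with PRX71 (AT5G64120). Whether reads were shared between such loci was not tested.

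Of the 21 tested xyloglucan endotransglucosylase/hydrolases, which cut and rejoin wall xyloglucan and were likewise chosen after their values were seen, 6 fell and 1 rose, with a median of -0.41. Over all tested genes 1.8% were called lower and 1.2% higher. XTH18 was at 15.1, 11.8 and 15.7 FPKM in the double mutant and at 57.9, 62.8 and 61.9 FPKM in smxl5-1, while WT was spread from 15.5 to 41.6 FPKM. The double mutant was low and tight and smxl5-1 high and tight (log2 fold change -2.03 ± 0.28, limma adjusted p = 0.00634). XTH18 was the 1 call of the family kept in all 6 fits; XTH17, XTH4, XTH8, XTH15 and XTH24 fell by 0.57 to 1.69 on the log2 scale, kept the call in 1 or 2 of 6 and were all lost without double-mutant replicate 3 (adjusted p = 0.0744 to 0.136). XTH32 rose by 0.38, a call kept only without smxl5-1 replicate 2. XTH17 and XTH18 are closely related, as are MLP328 and MLP329 below, and the assembly could share reads between such copies.

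Among 13 salicylic acid and defence genes, 10 were tested, 2 fell and none rose, with a median of -0.25. PR4, a chitin-binding protein of the jasmonate and ethylene response, was at 92.0, 74.7 and 72.0 FPKM in the double mutant and at 187, 217 and 197 FPKM in smxl5-1, with WT between, at 107 to 117 FPKM. Its log2 fold change was -1.33 ± 0.11 (limma adjusted p = 0.000338). The chitinase PR3 was at 10.6, 11.9 and 13.0 FPKM against 29.9, 29.3 and 21.98 FPKM (log2 fold change -1.12 ± 0.14, limma adjusted p = 0.00396). PR3 and PR4 are not markers of salicylic acid itself: PR5 had a log2 fold change of -0.28, PAD4 of -0.37 and ICS1, the enzyme of salicylic acid synthesis, of 0.32, and none passed. Outside the list, AT4G16260, annotated as a glycosyl hydrolase, was at 35.8, 28.5 and 33.5 FPKM against 130, 192 and 106 FPKM (log2 fold change -2.06 ± 0.20, limma adjusted p = 0.00111), and WRKY40, a factor induced by wounding and pathogens, at 1.296, 0 and 0 FPKM against 4.56, 4.81 and 5.96 FPKM (-2.20 ± 0.36, adjusted p = 0.0139). The WRKY40 call was lost without double-mutant replicate 3 (adjusted p = 0.0536). The trypsin inhibitor KTI1, chosen after its values were seen, was at 51.1, 49.6 and 49.1 FPKM against 151, 174 and 130 FPKM, with WT at 62.8 to 78.5 FPKM (log2 fold change -1.57 ± 0.12, limma adjusted p = 0.000226).

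A pair of neighbouring genes of the lipid-transfer family fell together. AT4G12545 (chromosome 4, 7434199 to 7434858, plus strand) was at 10.7, 8.39 and 10.6 FPKM in the double mutant and at 67.8, 72.9 and 46.8 FPKM in smxl5-1, and AIR1 (AT4G12550, chromosome 4, 7439115 to 7439805, plus strand), named for its induction by auxin in root cultures, at 6.57, 5.35 and 5.97 FPKM against 31.5, 39.1 and 20.8 FPKM. WT was at 68.3 to 77.5 FPKM and at 38.7 to 42.4 FPKM, so the double mutant alone was low in both. Their log2 fold changes were -2.52 ± 0.18 and -2.13 ± 0.19 (limma adjusted p = 0.000198 and 0.000586). AIR1 is named for roots, so the root markers were read beside it. None of the 6 listed root and root hair genes passed, 5 of 6 had a negative log2 fold change, and their summed level ran from 1283 to 1580 FPKM in the double mutant and from 1631 to 3250 FPKM in smxl5-1. Nearly all of that sum is PYK10, the root beta-glucosidase, at 1548, 1252 and 1296 FPKM against 2090, 3200 and 1612 FPKM (log2 fold change -0.70, limma adjusted p = 0.114). Of the other markers only RSL4 was listed at 0 in a library of either group. The part of root share in the lower genes was not tested.

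The MLP-like proteins, whose function is unclear, and J8, a chloroplast DnaJ protein, were also chosen after their values were seen. Of 8 MLP-like genes tested 3 fell and none rose, against 1.8% of all tested genes called lower. In this family 4 log2 fold changes were positive and 4 negative, with a median of -0.07. MLP328 was at 44.7, 49.1 and 50.4 FPKM in the double mutant against 149.9, 131 and 97.7 FPKM in smxl5-1, a log2 fold change of -1.36 (limma adjusted p = 0.00253). MLP34, at -0.89, lost its call without double-mutant replicate 2 or 3 or smxl5-1 replicate 1 (adjusted p = 0.0929, 0.0898 and 0.0795). MLP329 was at 57.2, 56.1 and 55.4 FPKM in the double mutant against 146, 222 and 125 FPKM in smxl5-1 (log2 fold change -1.49 ± 0.19, limma adjusted p = 0.00436), and J8 at 135, 149 and 142 FPKM against 329, 436 and 307 FPKM (-1.31 ± 0.13, adjusted p = 0.00122). The double mutant was lower than WT in these, where MLP328 was at 161 to 179 FPKM, MLP329 at 97.9 to 137 FPKM and J8 at 232 to 290 FPKM.

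**Figure D4:**
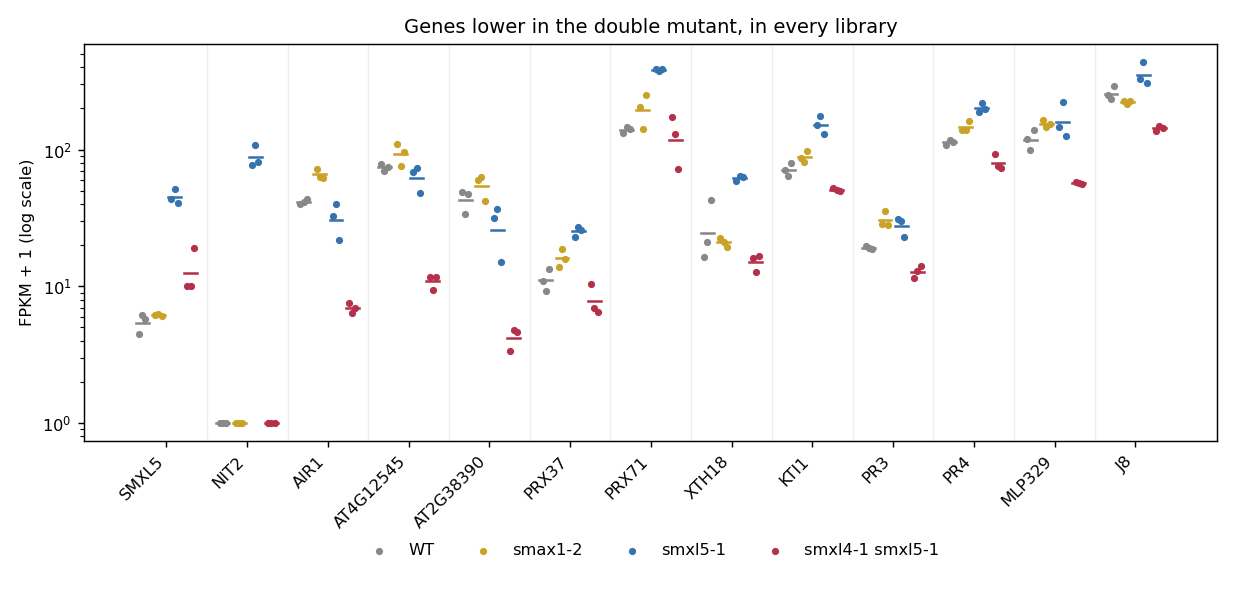
FPKM plus 1 on a log axis for 13 genes called lower in the double mutant, 1 point per library (n = 3 per group), with a line at the mean of the logs; a value of 1 means that the gene was not listed. Red double-mutant points lie below blue smxl5-1 points throughout, with WT near the double mutant for PRX71 (131 to 146 FPKM) and near smxl5-1 for AT4G12545 (68.3 to 77.5 FPKM).

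The largest fall was that of NIT2 (AT3G44300, chromosome 3, 15983199 to 15985535, plus strand), a nitrilase that can turn indole-3-acetonitrile into auxin. It was listed at 76.0, 106 and 80.7 FPKM in smxl5-1 and in no other library of the series, so it separates smxl5-1 from WT and smax1-2 as much as from the double mutant. The fitted log2 fold change of -6.45 depends on the pseudocount and is no bound on the fold (limma adjusted p = 3.74e-07). NIT1, the adjacent and closely related copy, was at 1038, 732 and 833 FPKM in the double mutant and at 744, 841 and 876 FPKM in smxl5-1 (log2 fold change 0.07), and reads could be split between the copies. Of 25 auxin genes, all tested, IAA19, an auxin-induced repressor, was the other call, at -0.60 (limma adjusted p = 0.0325), kept only without double-mutant replicate 1 and up to 0.112 otherwise; the median of the list was 0.07.

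Several other genes with the largest fold changes were, like NIT2, unlisted throughout 1 group. Of the 588 called genes 546 had a value in all 6 libraries, 17 were unlisted in every double-mutant library and 18 in every smxl5-1 library. Of these 35, 10 overlap another annotated gene, against 32.2% of all tested genes. AT4G01700, annotated as a chitinase (chromosome 4, 732313 to 733510, minus strand), was at 43.0, 31.3 and 45.5 FPKM in smxl5-1 and unlisted in the other 9 libraries. It overlaps the end of PPOX, whose log2 fold change was 0.70. AT3G63510, annotated as an FMN-linked oxidoreductase, was at 16.7, 5.29 and 12.8 FPKM in smxl5-1 and likewise unlisted in the other 9. AT3G55605, annotated as a mitochondrial glycoprotein family member, was unlisted in the double mutant alone, at 16.1, 10.3 and 18.5 FPKM in smxl5-1 and 12.8 to 15.5 FPKM in WT. It overlaps P5CS2, a proline synthesis enzyme that was at 50.6, 44.8 and 46.5 FPKM in the double mutant and 37.1, 55.5 and 31.9 FPKM in smxl5-1. These 3 calls were kept whichever library was left out.

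The rest of the largest changes were lost when a library was left out. AT5G03285, AT4G00670 and AT1G19710 among the lower genes and BGLU3, HTR11, AT1G31920, AT1G80910 and AT3G20395 among the higher kept their call in none of the 6 fits, with adjusted p values from 0.0587 to 0.142. AT4G00670 overlaps RH8 (log2 fold change 0.30), AT1G19710 overlaps AT1G19715 (0.41) and AT1G31920 overlaps AT1G31910 (-0.14). AT1G80910, unlisted in smxl5-1, overlaps J8, which was higher there than in the double mutant (log2 fold change -1.31). Whether reads were shared between these overlapping genes was not tested. BGLU3 had the largest log2 fold change, 7.01, at 110, 99.9 and 193 FPKM against no listing in smxl5-1, but it rested on pieces of 68 to 72 bases, came to 1.82 with effective length, and was at 81.3, 0 and 103 FPKM in WT. HTR11 was at 81.1, 138 and 102 FPKM from pieces of 1306 to 1353 bases, longer than its reference of 615 bases, and at 4.83 to 5.26 FPKM in smxl5-1. LBD1, a factor of the LOB family, was listed in the double mutant alone, at 10.2, 2.93 and 71.5 FPKM, and lost its call without double-mutant replicate 1 or any 1 smxl5-1 library (adjusted p = 0.0627 to 0.0887). CLE6, a signalling peptide gene chosen after its values were seen, was also listed in the double mutant alone, at 4.09, 6.76 and 11.02 FPKM, and kept its call in all 6.

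Dehydration and cold genes moved both ways. Of 20 listed, 18 were tested, 1 rose and 2 fell, with a median of 0.14. COR15A, a chloroplast protein that protects membranes in the cold, was at 25.9, 54.9 and 37.3 FPKM in the double mutant and at 3.95, 6.24 and 7.10 FPKM in smxl5-1, with WT at 3.27 to 4.08 FPKM. The double mutant stood apart from both (log2 fold change 2.54 ± 0.29, limma adjusted p = 0.00258). The dehydrins COR47 and ERD10 fell, at -0.65 and -0.51. COR47 was at 188, 175 and 173 FPKM against 259, 348 and 246 FPKM, and lost its call without double-mutant replicate 2 or 3 (adjusted p = 0.0604 and 0.081); ERD10 lost its call without double-mutant replicate 3 or smxl5-1 replicate 2 or 3 (0.0888, 0.0541 and 0.0624). None of 9 abscisic acid genes passed. Their log2 fold change was positive in 8 of 9, with a median of 0.53, where 9586 of all 19656 tested genes were positive. The nearest were the phosphatases HAI2, at 2.93, 5.84 and 1.41 FPKM in the double mutant and unlisted in smxl5-1, and PP2CA, at 24.0, 33.2 and 28.2 FPKM against 13.0, 19.6 and 14.1 FPKM (limma adjusted p = 0.0556 and 0.0568).

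In the iron list the 3 calls of 22 tested genes were ferritins, which store iron, and no gene of iron uptake passed. Over all tested genes 1.2% were called higher. FER1 was at 152, 127 and 136 FPKM in the double mutant and at 87.5, 80.8 and 71.6 FPKM in smxl5-1. WT, at 143 to 203 FPKM, overlapped the double mutant and lay above every smxl5-1 library (log2 fold change 0.79 ± 0.13, limma adjusted p = 0.0151, or 0.0521 without double-mutant replicate 3). FER4 and FER3 had log2 fold changes of 1.31 and 0.60 (limma adjusted p = 0.0227 and 0.0362). FER4 kept its call only without double-mutant replicate 1 or smxl5-1 replicate 3 and FER3 only without double-mutant replicate 1, with adjusted p up to 0.0886 and 0.122 otherwise. The uptake genes IRT1 and FRO2 had log2 fold changes of -0.26 and 0.65 and their regulator FIT of 0.13. Of 20 jasmonate genes the synthesis enzymes AOC2 and AOS rose, by 1.01 and 0.998 (limma adjusted p = 0.0257 and 0.0284), each kept only without replicate 2 of either group and up to 0.0905 and 0.0898 otherwise. The signalling genes MYC2 and COI1 had log2 fold changes of 0.29 and 0.08.

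The remaining lists held 1 or 2 calls or none, where 2.99% of all tested genes were called. In phosphate starvation 1 of 16 tested genes, the ubiquitin-conjugating enzyme PHO2, rose by 0.72, with a list median of 0.59. In nitrate 1 of 12, the transport partner NRT3.1, fell by 0.47. In cytokinin response 1 of 8, ARR6, fell by 0.64. In light signalling 2 of 14 fell, BBX21 by 0.55 and BBX22 by 0.42. In heat shock 1 of 6, HSP18.2, fell by 1.11. Their limma adjusted p values were 0.0237 to 0.0364, and each call was lost in most fits that left out 1 library. PHO2 kept it only without replicate 2 of either group, NRT3.1 without double-mutant replicate 1 or smxl5-1 replicate 3, ARR6 without double-mutant replicate 2 or smxl5-1 replicate 1, BBX21 without smxl5-1 replicate 2 or 3, HSP18.2 without smxl5-1 replicate 2, and BBX22 in none. The lost fits reached adjusted p = 0.107 for PHO2, 0.0726 for NRT3.1, 0.11 for ARR6, 0.0695 for BBX21, 0.0909 for HSP18.2 and 0.0846 for BBX22. None of 21 nuclear photosynthesis genes passed, with a median of 0.12, nor any of 13 clock genes with a median of 0.23 or of 8 cell cycle genes with a median of 0.27. Mesophyll markers were abundant in both groups. RCA was at 4600.5 to 5719 FPKM in the double mutant and 3633 to 4568 FPKM in smxl5-1, without overlap (limma adjusted p = 0.213). The markers RBCS1A, LHCB1.1 and LHCB2.1 overlapped between the groups, with log2 fold changes of 0.22, 0.13 and -0.02. Of 6 seed storage genes 1 could be tested, SESA2, at 11.7, 9.84 and 2.69 FPKM against 2.64, 0 and 2.76 FPKM (limma adjusted p = 0.544).

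Smaller families chosen after their values were seen were higher in the double mutant, where 1.2% of all tested genes were called higher. Of 5 tested glucosinolate S-oxygenases, which modify the side chains of these mustard-oil precursors, 3 rose and none fell, with FMO GS-OX3 at 32.4, 30.3 and 24.9 FPKM against 12.1, 14.1 and 14.3 FPKM (log2 fold change 1.05, limma adjusted p = 0.00152). All 3 tested PsbQ-like genes, among them PnsL2 and PnsL3, subunits of the chloroplast NDH complex, rose, by 0.44 for PnsL2 and 0.99 for PnsL3. PnsL3 was at 45.4, 41.0 and 48.7 FPKM against 19.0, 25.5 and 22.6 FPKM, with WT between, at 30.7 to 35.3 FPKM. AT1G52000, a mannose-binding lectin gene, was at 37.3, 32.0 and 37.9 FPKM against 6.08, 10.01 and 7.18 FPKM, and AT2G27420, a cysteine proteinase, at 35.9, 35.6 and 33.6 FPKM against 11.9, 10.8 and 10.4 FPKM. In all these named genes the double mutant lay above every smxl5-1 library, FMO GS-OX2 kept its call in none of the 6 fits and PQL3 only without smxl5-1 replicate 1, and the calls of FMO GS-OX3, PnsL2, PnsL3, AT1G52000 and AT2G27420 were kept whichever library was left out.

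**Figure D5:**
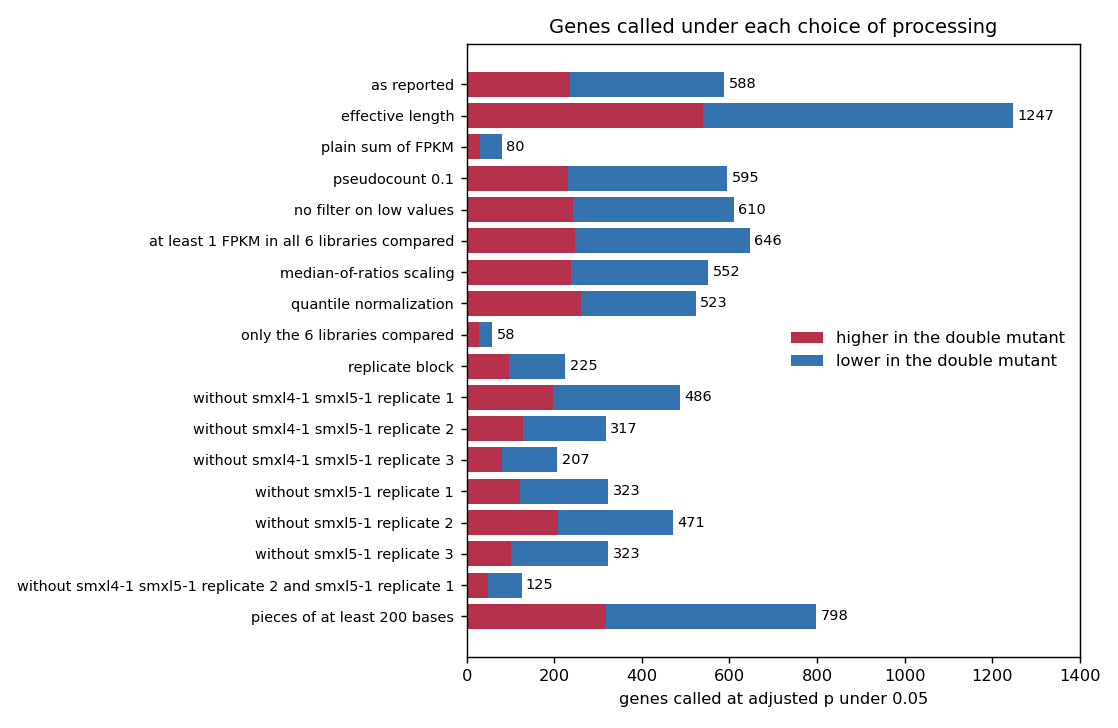
Number of genes called at an adjusted p under 0.05 under each choice of processing, split into higher (red) and lower (blue) in the double mutant. The count as reported is 588, and it ran from 58 with the spread taken from the 6 libraries alone to 1247 with effective length.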

How the data were processed

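The 12 libraries, 3 in each of 4 groups, were grouped by their titles, and 2 deposited file names carry the other replicate number of the double mutant, which changes no group. The submitters' processing notes name TopHat2 2.0.14 and the build TAIR10; the sources used here do not give the assembler or annotation. The deposited tables list assembled pieces with, per the file headers, FPKM and its bounds, coverage (a signal that was a constant multiple of FPKM within each file), a relative abundance in percent, and lengths in bases. No counts were used, although the series' design text names DESeq2 for the authors' own test.

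Each piece of class =, c, j, e or o (345442 of 353616) gave its FPKM times its length, not beyond the reference, over the reference length, summed per locus. limma 3.58.1 (trend on) in R 4.3.3 was fitted to log2(FPKM + 1) of the 12 libraries in 4 groups without a block, testing the double mutant minus smxl5-1. The fit was also run on simulated data. No outcome of that run is given here, so it is no evidence for the calls. p-values measure the spread between replicates of pooled seedlings.

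The comparison, the 27 gene lists (396 genes, 365 tested) and the naming rule were chosen with earlier results of these data known. The rule names the mutated genes; per direction the 12 called genes with the largest change, whose higher group averaged 5 FPKM or more, with libraries that do not overlap and the same call with effective length; and up to 4 called genes per list, or 2 where none was called. Other genes were chosen after their values were seen. Names and positions come from RefSeq TAIR10.1, which held 20728 of 20869 loci. Alternatives were another length weighting, scaling, filter, pseudocount, block and omitted libraries. Tables were read with Python 3.11.15 and pandas 2.3.3.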

Additional observations from a re-analysis of the deposited data

How the results depend on the processing

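The 588 calls (235 higher, 353 lower) became 1247 (539 and 708) with effective length, which assumes fragments of 200 ± 80 bases, 80 (29 and 51) under a plain sum of FPKM, 58 (28 and 30) with only the 6 libraries compared, and 225 (97 and 128) with the replicate number as a block. The deviations of same-numbered libraries of the 2 groups correlated at -0.10, -0.10 and 0.04, and those of differently numbered ones at -0.07 to 0.17. Being deviations from a mean of 3 libraries, these cannot show whether a replicate number stands for a shared batch. The other scalings and filters gave 523 to 646 calls, and the split moved from 40.0% higher to 49.7% with quantile normalization. Leaving out 1 library gave 207 to 486 calls, 81 to 209 higher and 126 to 288 lower. Among alternatives chosen after seeing the data, leaving out double-mutant replicate 2 and smxl5-1 replicate 1 together gave 125 (49 and 76), and pieces of at least 200 bases gave 798 calls (317 and 481). The causes were not tested.

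Of 80 called genes followed singly, 15 were kept in every fit in which they were tested, and none changed direction. Among these 15 were LDOX, GSTF12, UGT78D2, SWEET12, MYBL2, PR4, NIT2 and AIR1. The filter of at least 1 FPKM in all 6 libraries compared tested 61 of the 80. NIT2, unlisted in the double mutant, was not tested there. DFR was lost only under the plain sum (limma adjusted p = 0.0538), and PAP1 under the plain sum and with the 6 libraries alone (0.142 and 0.0573). Of the genes followed singly that did not pass, 4 changed sign. Signs of the other printed values that did not pass were not followed. SMXL4, as reported 0.71, was -0.28 and AT1G19715, as reported 0.41, was -0.031 under the plain sum. RSL4, as reported -0.86, was 0.49 with longer pieces and -1.36 to 0.12 without libraries. SMAX1, as reported 0.00, was 0.052 with effective length, 8.8e-05 with a pseudocount of 0.1, 0.014 with median-of-ratios scaling, 0.032 with quantile normalization, 0.042 with longer pieces and -0.093 to 0.15 without libraries.

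Fragment counts are not given, so the precision of low values is unknown.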
